A study of Homo sapiens with 2 samples.

Results

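The ZBTB genes encode transcription factors that join an N-terminal BTB (POZ) domain to zinc fingers of the C2H2 type, and the name stands for zinc finger and BTB domain. Members were taken by symbol: every gene of the deposited count table whose Ensembl identifier belongs to a protein-coding gene named ZBTB with a number and an optional suffix. The rule found 42 genes among the 64081 genes of the table. The BTB domain lets these proteins pair with themselves or with each other and recruits corepressor complexes with histone deacetylases, or the ubiquitin ligase scaffold CUL3, while the zinc fingers read DNA. Many members act as repressors and are known from the development of blood cells, from binding to methylated DNA or from control of the cell cycle.

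The RNA came from LNCaP, an established androgen-sensitive line of human prostate carcinoma with luminal features. The cells were kept for 48 h without androgen, in medium whose 10% serum had been stripped with charcoal and which held 10 mM HEPES. Polyadenylated RNA of 2 biological replicates was sequenced as strand-oriented read pairs, and the counts of both replicates stand in 1 column, so there was 1 group, no replicate error and no test. The study used these libraries to look for antisense transcription at loci of transcription factors, and the question followed below is how the counts of the ZBTB loci are divided between their strands.

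The genes of the table held 9495309 read pairs, and 93.5% of the uniquely placed pairs fell on no exon of the counted strand. The 3 genes with the highest counts held 48.5% of the pairs on genes. The libraries are described as fr-secondstrand and the counting as reverse-stranded. With these settings the count listed for a gene is made of pairs transcribed from the strand opposite to that gene, over its exons. A listed count of a ZBTB gene is therefore not the level of its mRNA under these settings, and the values below are counts as listed. Intervals are exact 95% Poisson intervals for counts and exact 95% Clopper-Pearson intervals for shares, which cover counting error only, and the one-sided 95% limit for a count of 0 is 3 counts (the upper end of the interval is 3.69). Of the luminal prostate markers, 8 of 8 had counts (lowest 8, median 43), with 6947 for KRT8, which shares exons with KRT18 on the other strand, and 18 for KLK3. Over all protein-coding genes the median was 6, and 26.3% had a count of 0. The basal markers KRT5, KRT14 and TP63 had 0, 1 and 1, and the stromal markers COL1A1, COL1A2 and DCN had 6, 6 and 15. The genes that every cell uses had a median of only 10.5, with 4 for ACTB and 14 for GAPDH. Since these too are counts of the opposite strand under the settings above, they do not check the identity of the cells.

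The name was first set against the transcripts of the reference annotation. The longest reading frame of each member was searched for the C2H2 spacing, that is a cysteine pair 2 or 4 residues apart, 12 residues, and a histidine pair 3 to 5 residues apart. At least 1 such finger was found in 41 of the 42 members, with a median of 4 and the most in ZBTB17 and ZBTB41, at 14 each. Over 19187 protein-coding genes, 4.28% had at least 1. The exception was ZBTB8OS, whose reading frame of 167 residues had none. ZBTB8OS lies opposite ZBTB8A and encodes archease, a cofactor of the tRNA ligase, so it belongs to the family by symbol and not by domain.

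The promoter sequences below belong to loci in which a ZBTB gene and its partner begin close together on opposite strands, and the results return to them. Other loci of this kind are not shown. Among them are ZBTB44 with ZBTB44-DT (75 nt apart), ZBTB49 with LYAR (96 nt) and ZBTB4 with POLR2A (102 nt). Each is a RefSeq window on GRCh38.p14 of 300 bases, from 250 bases before the start of the gene to 50 after it, written 5′ to 3′ on the strand of the gene. Capitals mark matches on either strand to the GC box (GGGCGG or CCGCCC), the CCAAT box (CCAAT or ATTGG) and the ETS core (CGGAAG or CTTCCG). The TATA box (TATAAA or TTTATA) was also searched and was in none of the 4 windows. ZBTB11, minus strand, chr3:101677083-101677382, and ZBTB11-AS1, plus strand, chr3:101676180-101676479, start 702 bases apart, with the antisense gene beginning inside ZBTB11. ZBTB25, minus strand, chr14:64503789-64504088, and ZBTB1, plus strand, chr14:64503637-64503936, start 49 bases apart in these windows.
ZBTB11: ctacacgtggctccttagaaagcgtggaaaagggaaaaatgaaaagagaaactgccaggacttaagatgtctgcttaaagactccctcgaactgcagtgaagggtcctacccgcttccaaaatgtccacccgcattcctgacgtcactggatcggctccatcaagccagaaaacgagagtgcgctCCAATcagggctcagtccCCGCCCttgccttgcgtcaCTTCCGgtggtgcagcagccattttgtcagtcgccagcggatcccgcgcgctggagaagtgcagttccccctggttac
ZBTB11-AS1: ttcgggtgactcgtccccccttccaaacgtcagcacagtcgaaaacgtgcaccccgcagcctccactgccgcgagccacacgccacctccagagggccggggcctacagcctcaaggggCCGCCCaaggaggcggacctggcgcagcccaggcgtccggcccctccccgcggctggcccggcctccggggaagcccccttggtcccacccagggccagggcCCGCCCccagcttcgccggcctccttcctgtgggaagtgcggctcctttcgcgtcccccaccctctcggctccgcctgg
ZBTB25: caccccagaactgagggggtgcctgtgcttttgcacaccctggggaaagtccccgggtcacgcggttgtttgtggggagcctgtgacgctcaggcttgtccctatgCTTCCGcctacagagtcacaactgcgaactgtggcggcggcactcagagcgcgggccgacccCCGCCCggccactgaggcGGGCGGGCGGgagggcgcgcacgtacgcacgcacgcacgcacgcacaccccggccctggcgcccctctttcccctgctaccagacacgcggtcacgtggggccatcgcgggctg
ZBTB1: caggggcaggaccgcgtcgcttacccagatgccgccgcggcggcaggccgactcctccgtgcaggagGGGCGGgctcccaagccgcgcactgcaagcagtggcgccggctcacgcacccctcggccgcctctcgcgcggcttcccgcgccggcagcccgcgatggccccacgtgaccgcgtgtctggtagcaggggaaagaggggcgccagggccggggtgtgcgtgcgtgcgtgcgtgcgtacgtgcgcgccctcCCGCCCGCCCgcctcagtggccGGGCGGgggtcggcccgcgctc

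The ZBTB11 window held 1 GC box, 1 CCAAT box and 1 ETS core, with 17 CpG and a GC content of 55.3%. The ZBTB11-AS1 window held 2 GC boxes, 27 CpG and 73.7% GC. The windows of ZBTB25 and ZBTB1 overlap on opposite strands and held 31 and 46 CpG, with 3 and 4 GC boxes. For comparison, the median over all 35116 windows of the table was 14 CpG and 58.7% GC. Windows were found for 36 of the 42 members, 70 windows in all, with a median of 21 CpG. A GC box stood in 61.4% of these and in 45.0% of all windows, a CCAAT box in 40% and 34.6%, an ETS core in 30% and 19.5%, and a TATA box in 8.57% and 11.5%. These are matches of letters and say nothing of binding, and several windows belong to the same gene.

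The ZBTB family as a whole held 10297 counts, which is 0.108% of the pairs on genes. ZBTB45 alone held 73.2% of them, and the other members together held 2760. The 10 highest members held 96.5% of the family sum. At least 10 counts were listed for 20 of 42 members, or 47.6%, and for 44.2% of all protein-coding genes, so the share was near the background. A count of 0 was listed for 8 members, or 19.0%, against 26.3% of protein-coding genes. The remaining 14 members had 1 to 9 counts. The median was 7.5 for the family and 6 for protein-coding genes, and per kb of exon it was 1.22 for both.

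**Figure D1:**
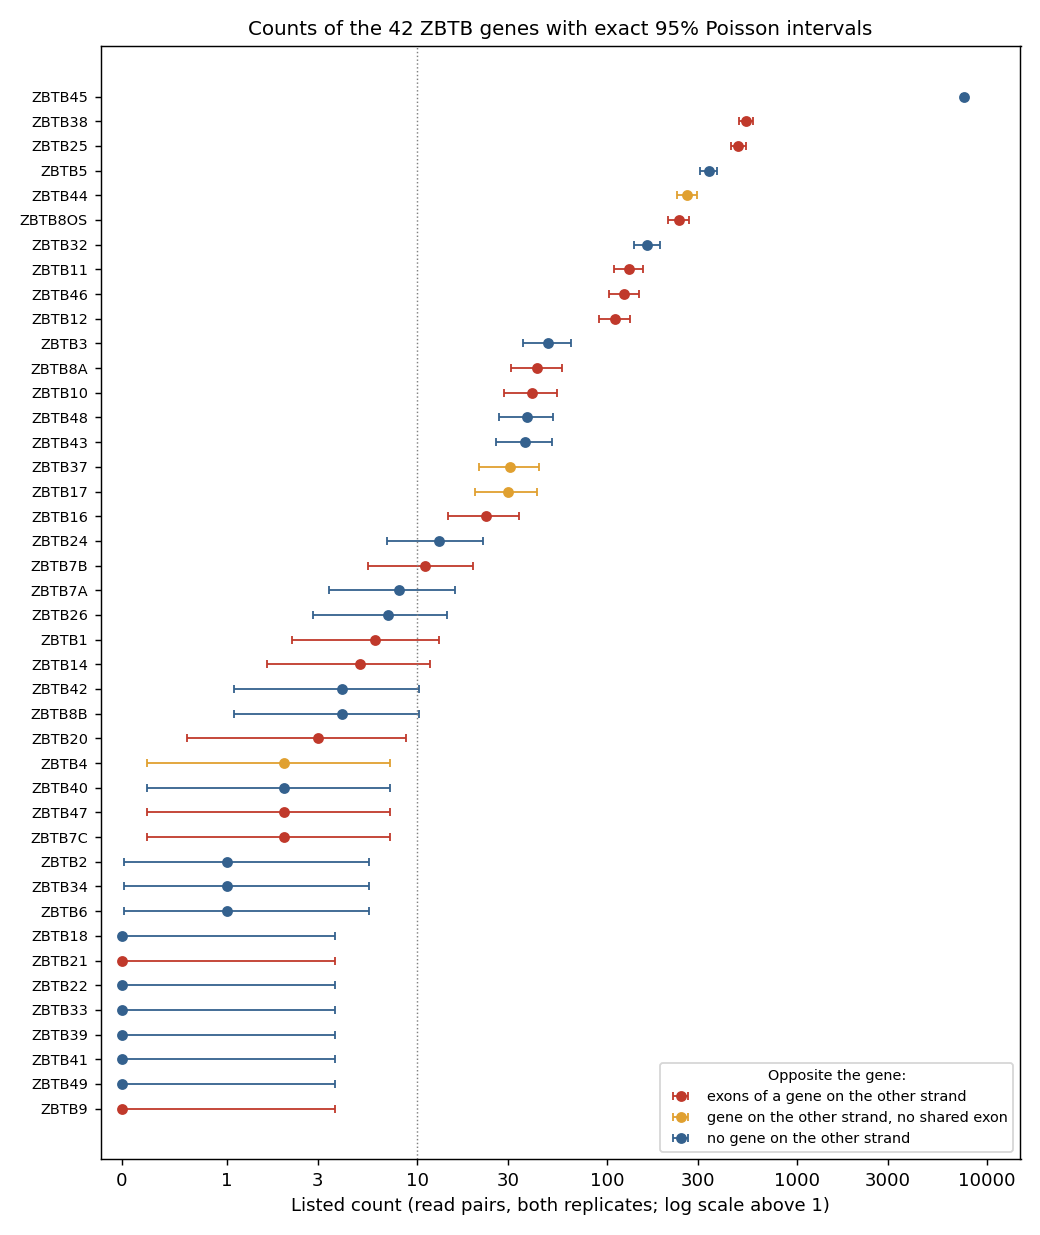
Listed counts (x axis, read pairs of both replicates, log scale above 1) of the 42 ZBTB genes (y axis), with exact 95% Poisson intervals as bars and colours for what lies on the opposite strand; the dotted line marks 10 counts. ZBTB45, at 7537, stands apart from ZBTB38, the next at 538, and 8 genes are at 0.

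ZBTB45, a factor reported in glial differentiation, had 7537 counts (7368 to 7709), or 794 CPM (counts scaled to the total on genes), 14.0 times the count of ZBTB38. That was 2507 counts per kb of exon, and 99.9% of protein-coding genes had a lower count. It lies on the minus strand at chr19:59024897-59050278 (GRCh37), and no gene of the annotation overlaps it on the plus strand. The nearest gene there is TRIM28, a corepressor of KRAB zinc finger proteins, 5152 nt away and pointing in the other direction, with 1 count. The annotation therefore names no gene on the strand from which these pairs came under the settings. The processed pseudogenes ZBTB45P1 and ZBTB45P2 on chromosome 2 had 24 counts each, and how pairs were divided among such copies was not tested.

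The 9 members that follow were between 110 and 538, and all but ZBTB38 and ZBTB32 lie on the minus strand. In the whole family, 23 members lie on the minus strand and 19 on the plus strand. At least 10 counts were listed for 11 and 9 of these. ZBTB38 (538, interval 493 to 585), which binds methylated DNA, had a count whose interval overlapped that of ZBTB25 (490, 448 to 535). ZBTB5, a repressor of the CDKN1A gene, followed at 342 (307 to 380), and its interval met neither neighbour. ZBTB44 (263) and ZBTB8OS (238) overlapped each other, as did ZBTB32 (163, a repressor in lymphocytes), ZBTB11 (130), ZBTB46 (123, a marker of dendritic cells) and ZBTB12 (110), each with the next. Below them, ZBTB3 had 49, ZBTB8A 43, ZBTB10 40, ZBTB48 38, ZBTB43 37, ZBTB37 31, ZBTB17 30, ZBTB16 23, ZBTB24 13 and ZBTB7B 11.

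By the roles known for the members, a grouping made after the counts were seen, no group stood at 0 as a whole. Of the 6 factors of blood cell development, 4 had at least 10 counts, beside 44.2% of protein-coding genes. In this group, ZBTB32 had 163, ZBTB46 had 123, ZBTB16, the PLZF protein of promyelocytic leukaemia, had 23, and ZBTB7B, the ThPOK factor of CD4 T cells, had 11. ZBTB7A had 8 and ZBTB1, needed for lymphoid development, had 6. The factors of methylated DNA ranged from 0 for ZBTB33, known as Kaiso, over 2 for ZBTB4 and 13 for ZBTB24, a gene of the immunodeficiency and centromeric instability syndrome, to 538 for ZBTB38. These 4 thus ran from 0 to the second place of the family.

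The 4 factors of the cell cycle were likewise spread. ZBTB5 had 342 and ZBTB17, the MYC partner MIZ1, had 30, whereas ZBTB2 had 1 and ZBTB49 had 0. The telomere-binding factors ZBTB48 and ZBTB10 had 38 (26.9 to 52.2) and 40 (28.6 to 54.5), which counting error does not separate. Of 4 factors of brain, liver and muscle, ZBTB18, a repressor in cortical neurons, had 0, ZBTB20, a repressor of alpha-fetoprotein in liver, had 3, and ZBTB42, a gene of skeletal muscle, had 4, beside 7537 for ZBTB45. In the 22 members given no role here, the median was 4.5, 9 had at least 10 counts and 5 had none, shares near the 44.2% and 26.3% of protein-coding genes.

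The 8 members at 0 were ZBTB9, ZBTB18, ZBTB21, ZBTB22, ZBTB33, ZBTB39, ZBTB41 and ZBTB49, each with a one-sided limit of 3 counts or 0.316 CPM (upper end of the interval 3.69 counts or 0.388 CPM). For 2 of them exons of another gene lie opposite their own exons, beside 936 of the 5098 protein-coding genes at 0. ZBTB21 shares 267 exonic nt with ZNF295-AS1, listed at 32. Of the 8, 6 have no gene of the annotation on the opposite strand, beside 3196 of the 5098 protein-coding genes at 0. Under these settings a 0 does not speak of the mRNA of these genes, since the pairs from their own strand would be listed elsewhere or on no gene.

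Genes on the opposite strand were then named for every member. In all, 21 members have at least 1 such gene in their span. The other 21, or 50%, have none, beside 44.4% of protein-coding genes. Exons of the other gene share at least 1 nt with the member's exons in 17, or 40.5%, against 36.7% of protein-coding genes. Those 17 members had a median of 23 counts, and the 25 without shared exons had a median of 4. The same medians were 24 and 3 for protein-coding genes. Per kb of exon the medians were 2.56 and 1.08 for the family and 4.16 and 0.602 for protein-coding genes. At least 10 counts were listed for 58.8% of the 17 and for 33.3% of the 21 members with no opposite gene, beside 63.9% and 29.8% of protein-coding genes. In 4 members, ZBTB4, ZBTB17, ZBTB37 and ZBTB44, a gene lies on the opposite strand of the span without a shared exon, and 3 of these had at least 10 counts, beside 39.8% of the 3681 protein-coding genes of that kind. For 4 of the 17 members the only genes with shared exons have no row in the table. With genes that have a row alone, 13 members had opposite exons, beside 6465 of the 7112 protein-coding genes.

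**Figure D2:**
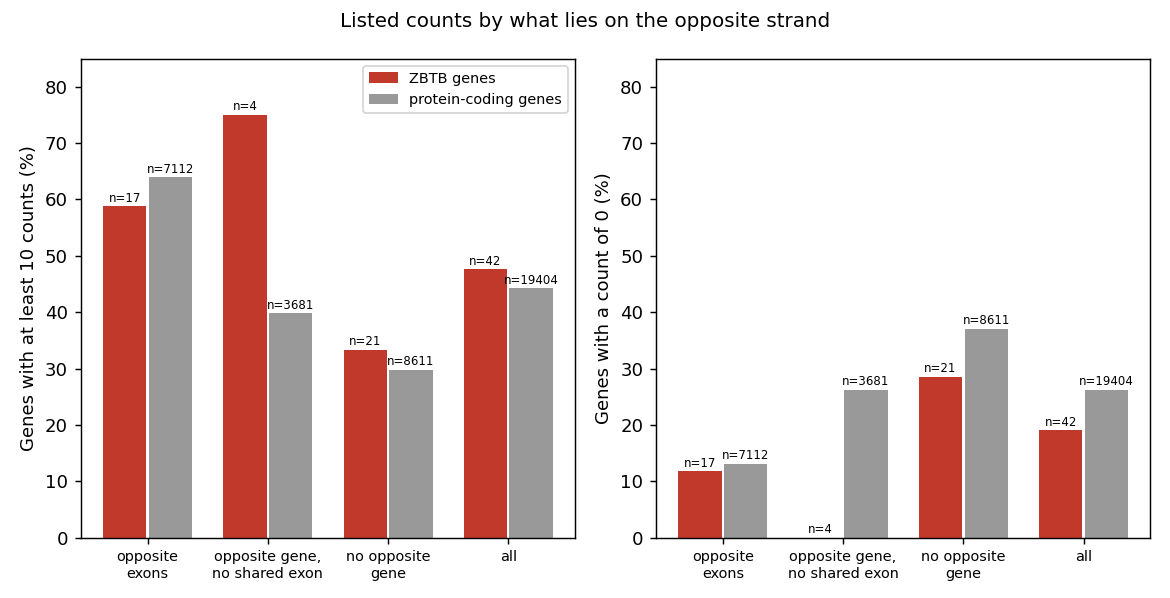
Share of genes with at least 10 counts (left, %) and with a count of 0 (right, %) by what lies on the opposite strand, for ZBTB genes (red) and all protein-coding genes (grey), with the number of genes over each bar. Both sets had the higher share of at least 10 counts where exons lie opposite (58.8% and 63.9%) than where no gene does (33.3% and 29.8%), and the class with 4 ZBTB genes is too small to read.

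Both strands belong to members at 2 loci. At the first, ZBTB25 and ZBTB1 overlap head to head on chromosome 14 by 1502 nt, with 500 nt of shared exons, all outside the coding sequence of ZBTB25. ZBTB25 had 490 counts and ZBTB1 had 6, an 81.7-fold difference (98.8% of the pair, interval 97.4% to 99.6%), or 42.3-fold per kb of exon. Under the settings above, the 490 came from the plus strand and the 6 from the minus strand. On the plus strand lie also MTHFD1, a folate cycle enzyme, with 178 nt of shared exons at the other end of ZBTB25 and 188 counts, and AKAP5, an anchor of protein kinase A, inside ZBTB25 without a shared exon and with 120. ZBTB1 faces in addition HSPA2-AS1, with 96 shared nt and 228 counts.

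At the second locus, on chromosome 1, ZBTB8A and ZBTB8OS run into each other at their ends over 5770 nt, with 179 nt of shared exons. ZBTB8OS had 238 counts and ZBTB8A had 43, a ratio of 5.53 (11.1 per kb of exon), and ZBTB8OS held 84.7% of the pair (79.9% to 88.7%). ZBTB8B lies 42740 nt away on the strand of ZBTB8A and had 4. On that strand ZBTB8A and ZBTB8B also share 1782 and 1477 exonic nt with a readthrough gene that had 0 counts, and pairs that touch exons of 2 genes on the counted strand are left uncounted, if the annotation used for counting held both genes. Among members that share a strand and lie near each other, ZBTB43 had 37 and ZBTB34 1, intervals that do not overlap. ZBTB26 had 7 and ZBTB6 1, which counting error does not separate.

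Among the other high members, the opposite gene was listed above the member in some and below it in others. ZBTB12, at chr6:31867390-31869863, lies wholly inside the span of C2, a complement component on the plus strand, and shares 141 nt of its coding exons with it. ZBTB12 had 110 and C2 351, so ZBTB12 held 23.9% of the pair (20% to 28.0%), but per kb of exon the order turns, with a ratio of ZBTB12 to C2 of 1.14. ZBTB44 had 263, against 80 for the pseudogene DDX18P5 in its intron, and no exon is shared. Per kb of exon this order turns too, to a ratio of 0.389. Its head-to-head neighbour ZBTB44-DT, 75 nt away, had 0. ZBTB38 shares 48 nt with a gene without a row and had 538 beside 0 for the lncRNA ENSG00000249417 at its start. ZBTB5 and ZBTB32 have no gene on the opposite strand in their span, and the nearest for ZBTB5 is GRHPR, glyoxylate reductase, 1111 nt past its end, with 32.

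ZBTB7B shares only 4 nt with DCST2, listed at 95, and ZBTB16 shares 13 nt with the lncRNA ENSG00000256947, listed at 81. ZBTB16 shares a further 338 and 41 nt with opposite lncRNAs that have no row. ZBTB4, which lies 102 nt from POLR2A and is headed away from it, had 2, and SLC35G6 inside it had 41. ZBTB37 had 31 beside 12 for GAS5, a host of small nucleolar RNAs that starts in the same 801 nt, but per kb of exon ZBTB37 had 1.59 and GAS5 2.43. ZBTB17 had 30 beside 12 for a pseudogene in its intron, ENSG00000234607, and per kb of exon this order turns as well, to 7.08 and 21.3. ZBTB14 shares 523 nt with LINC00667 and had 5 beside 14, and ZBTB10 shares 594 nt with a lncRNA at 0 and had 40.

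**Figure D3:**
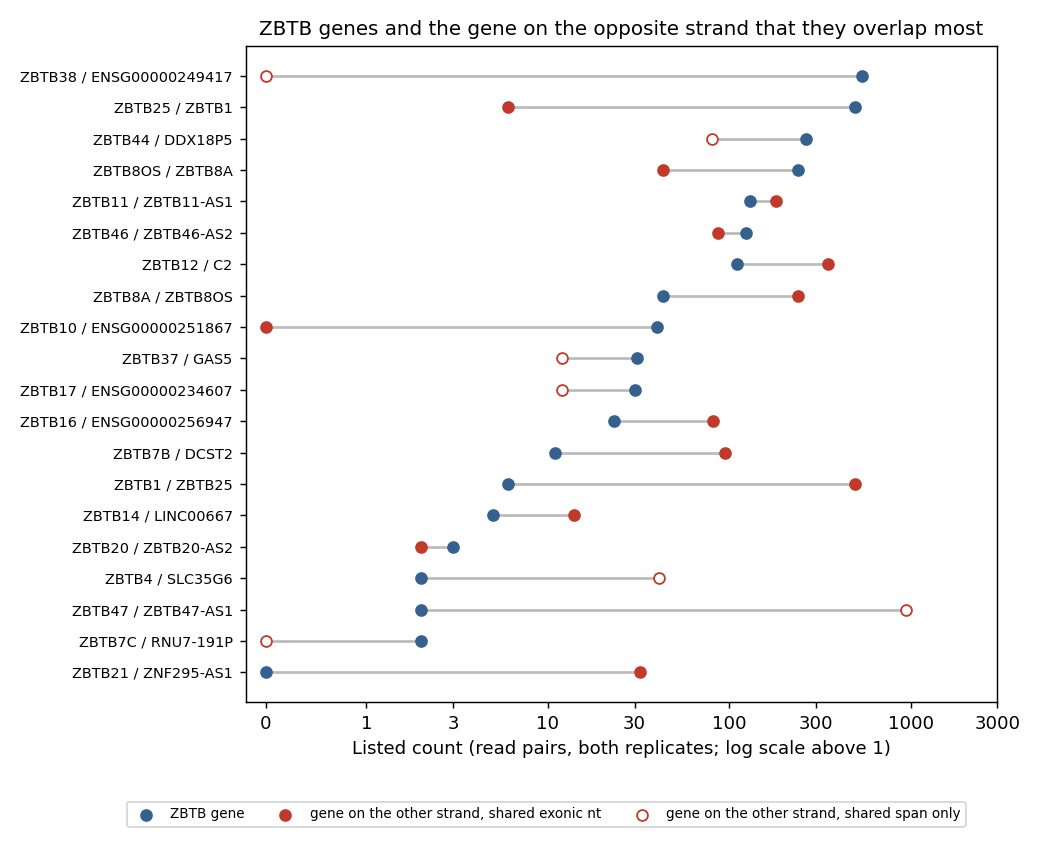
Listed counts (x axis, read pairs, log scale above 1) of the 20 ZBTB genes with an opposite-strand gene that has a row (blue) and of the one among those genes that shares the most exonic nt, or else the most span (red, filled where exons are shared). The ZBTB gene is the higher in 10 pairs and the lower in 10, and per kb of exon in 6 and 14. The same was not counted over all protein-coding genes. The ZBTB25 and ZBTB1 pair (490 and 6) and the ZBTB8OS and ZBTB8A pair (238 and 43) are each drawn from both sides.

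Of 11 antisense genes named after a member, 9 had a row, and they belong to 4 members. In 6 of these 9 pairs more counts were listed for the antisense gene, and in 3 for the member. The 5 ZBTB20 pairs all use the same ZBTB20 count of 3, so the 9 pairs are not separate observations. The same share was not computed over all antisense genes of the table, so no trait of the family can be read from it. Per kb of exon the antisense gene was the higher in 8 of the 9, all but ZBTB46-AS1. ZBTB11 had 130 counts and ZBTB11-AS1 had 180 (155 to 208), so the antisense gene held 58.1% of the pair (52.4% to 63.6%), and 88.5% per kb of exon. They share 531 exonic nt, of which 310 lie in the coding sequence of ZBTB11, at the ends whose promoter windows are printed above. ZBTB11 is the only gene opposite ZBTB11-AS1. Under these settings the 180 came from the strand of ZBTB11 and the 130 from that of ZBTB11-AS1.

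ZBTB46 had 123 counts beside 87 for ZBTB46-AS2 (41.4% of the pair, 34.7% to 48.4%) and 8 for ZBTB46-AS1 (6.11%, 2.67% to 11.7%). By the settings above, the 123 came from the strand of the antisense genes, and the 87 and 8 from that of ZBTB46. All 471 exonic nt of ZBTB46-AS2 lie in exons of ZBTB46, outside its coding sequence, whereas ZBTB46-AS1 lies in an intron. Counted per kb of exon, ZBTB46-AS2 had 185 and ZBTB46 17.4, so the order of this pair depends on the length: the antisense gene is short and held 91.4% on that scale. SLC2A4RG, a transcription factor gene on the plus strand at the end of ZBTB46, shares 383 nt with it and had 3.

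ZBTB47-AS1 had 946 counts (887 to 1008), the highest of the antisense genes named after a member, and ZBTB47 had 2. The antisense gene, on the minus strand at chr3:42643453-42695880, overlaps the span of ZBTB47 by 692 nt and shares 0 exonic nt with it. It does share 303 exonic nt with NKTR, a cyclophilin-related gene of natural killer cells, whose span on the plus strand runs along most of it and which had 261 counts. By the settings above, the 946 came from the plus strand, which is that of ZBTB47 and NKTR. The shared stretch is 9.34% of the exons of ZBTB47-AS1, and how many of the 946 pairs fell there was not tested. The share of 99.8% of the ZBTB47 pair does not compare both strands of 1 stretch of exons. ZBTB47 itself shares 1708 nt, 30% of its exons, with a lncRNA without a row.

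The ZBTB20 locus has the most antisense genes. ZBTB20 covers chr3:114033347-114866139 on the minus strand and had 3 counts (0.619 to 8.77), and the 5 antisense genes within it had 160 in all. By the settings above, the 160 came from the strand of ZBTB20 and the 3 from that of the antisense genes. ZBTB20-AS1 had 95 (96.9% of its pair), ZBTB20-AS4 36 (92.3%), ZBTB20-AS3 15 (83.3%), ZBTB20-AS5 12 (80.0%) and ZBTB20-AS2 2 (40%, interval 5.27% to 85.3%). Of these only ZBTB20-AS2, with 331 of its exonic nt, lies mostly in exons of ZBTB20, ZBTB20-AS1 and ZBTB20-AS3 share 250 and 70 nt, and ZBTB20-AS4 and ZBTB20-AS5 share none. ZBTB20 is the only gene on the strand opposite to each of the 5. In the annotation used here, 15214 nt, or 43.0% of the exons of ZBTB20, are shared with a lncRNA on its own strand, ENSG00000259976, also listed at 3, and what this overlap did to either count was not tested.

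**Figure D4:**
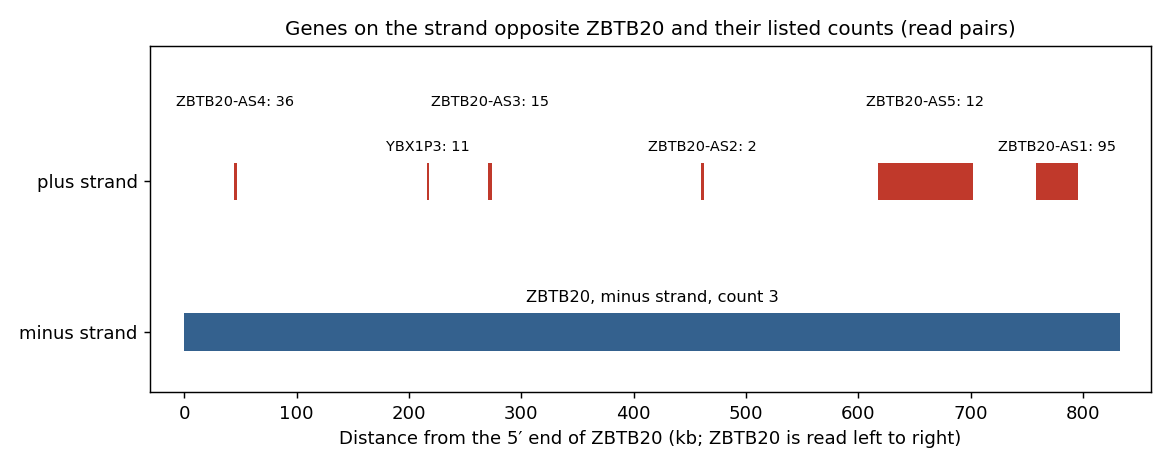
Positions of ZBTB20 (blue) and of the genes on the opposite strand (red) in kb from the 5′ end of ZBTB20, with the listed count of each. The 5 antisense genes lie apart from each other, with 95 counts for ZBTB20-AS1 and 36 for ZBTB20-AS4 at opposite ends of the gene, and 3 for ZBTB20 itself. By the counting settings, each listed count came from the strand opposite to the gene it is listed for. Genes under 2 kb are drawn 2 kb wide.

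**Figure D5:**
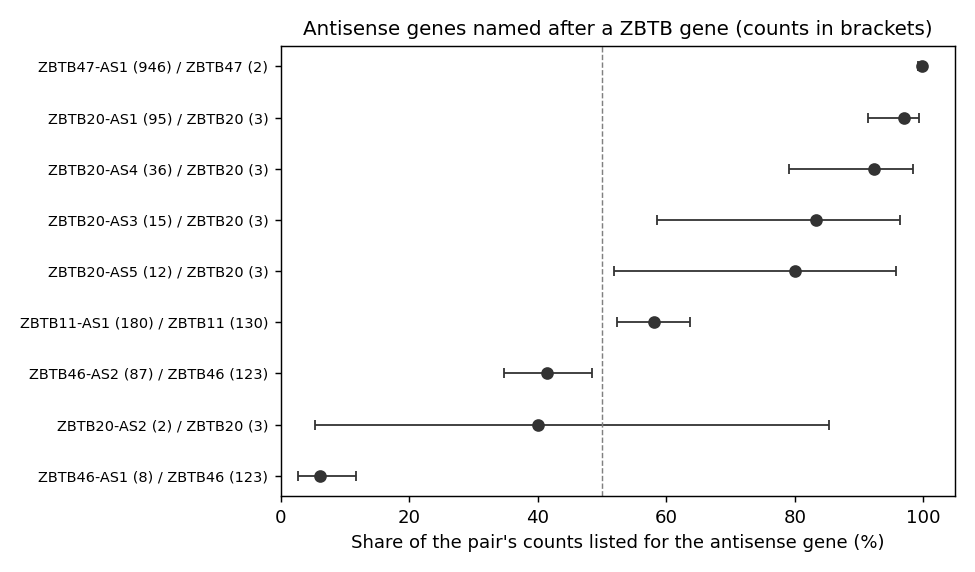
Share of the counts of each pair listed for the antisense gene (x axis, %) with exact 95% binomial intervals, and the counts in brackets. The antisense gene is above 50% in 6 of 9 pairs, and the interval of ZBTB20-AS2 spans 50%. The 5 ZBTB20 pairs use the same ZBTB20 count of 3. By the counting settings, pairs listed for an antisense gene came from the strand of the ZBTB gene.

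No share could be given for ZBTB7C, whose antisense genes ZBTB7C-AS1 and ZBTB7C-AS2 have no row. ZBTB7C had 2 counts. ZBTB24, at 13, shares 305 exonic nt on its own strand with MICAL1, a monooxygenase that acts on actin, listed at 243.

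Of 8 BTB zinc finger genes that carry other symbols, 4 had at least 10 counts, and the median was 15, beside 44.2% and a median of 6 for protein-coding genes. GZF1 had 304, PATZ1 119, MYNN 111 and ZNF131 22, whereas BCL6, the repressor of germinal centre B cells, had 0, HIC2 3, and BCL6B and HIC1 8 each. MYNN shares 794 exonic nt with an opposite lncRNA listed at 2099, and GZF1 has no gene on the opposite strand. Of 11 corepressors and partners of BTB proteins, 8 had at least 10 counts, with a median of 34, beside 44.2% and a median of 6 for protein-coding genes. NCOR1 had 469, SIN3A 110, HDAC1 63 and HDAC3 58, whereas BCOR and CUL3 had 0. NCOR1 shares exons with TTC19 on the other strand, listed at 692, and HDAC3 with a lncRNA listed at 917. Opposite exons also lie along some genes of these lists with few or no counts. Of all protein-coding genes, 13.2% of those with opposite exons had 0, beside 33.9% of those without. CUL3 shares 598 exonic nt and BCL6 487 nt and both had 0. For both, the opposite gene with the most shared nt has no row. HIC1 shares 2419 nt with SMG6, listed at 7, and HDAC2 had 10 beside 15 for HDAC2-AS2.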

How the data were processed

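Poly(A)+ RNA of LNCaP cells from 2 biological replicates was sequenced in strand-oriented paired-end mode. The submitters' processing notes name CASAVA 1.8, Trimmomatic 0.30, TopHat2 2.0.12, Bowtie2 2.2.3 and HTSeq 0.6.1p1, and the methods give hg19, library type fr-secondstrand and reverse-stranded counting. The authors deposited whole-number counts per gene without normalization, both replicates in 1 column. The annotation used for counting was not used here.

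Identifiers were matched without version to GENCODE 44 models lifted to GRCh37 (55538 genes). Exonic length and shared nucleotides were taken from the union of all exons, and an opposite gene counted from 1 shared nt. Genes without a model were left out of these comparisons. Members are described by counts and medians beside 19404 protein-coding genes. Of the uniquely placed pairs, 0.141% were ambiguous. CPM, the counts scaled to a common library size, used the total on genes. Full values were given for the 10 highest members, those at 0 and those with an antisense row, each with its opposite gene of most shared exonic nt, or else of most shared span. Members and lists were chosen with earlier results of these data known. Overlap and interval steps were tested on simulated data. Python 3.11.15, pandas 2.3.3 and scipy 1.17.1 were used, with matplotlib 3.10.9 for figures. Results on a few items are not reported here.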

Additional observations from a re-analysis of the deposited data

Results flagged for a closer look

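Some genes named after a member that are no members themselves had more than the 3 counts that a count of 0 allows, and none of them entered the comparisons of the family. The processed pseudogene ZBTB8OSP1 had 94 counts and lies opposite LRBA, and ZBTB12BP had 89 and lies opposite UBE2K. The copies ZBTB45P1 and ZBTB45P2 had 24 each and lie opposite LINC01123 and LINC01106. ZBTB24-DT, which begins 398 nt from the start of ZBTB24, had 12 counts beside 13 for ZBTB24. The other 3 such genes, ZBTB40-IT1, ZBTB44-DT and ZBTB8OSP2, had 0.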

How the results depend on the processing

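Of 35 alternatives, 5 reversed an order, in 4 pairs of genes, since ZBTB46 and ZBTB46-AS2 stand both as a share and as a ratio. The order also turned per kb for ZBTB37 with GAS5 and ZBTB17 with ENSG00000234607, which were outside these alternatives. The ratio of ZBTB25 to ZBTB1 fell from 81.7 to 42.3 per kb of exon, and the median without opposite exons was 7 where at least 50 shared nt were asked for. With a minimum of 1 count, 34 members passed, where 26.3% of protein-coding genes were at 0. Per kb of exon, the median was 1.22 over all members, 2.56 with and 1.08 without opposite exons. With protein-coding genes alone on the other strand, 7 members had opposite exons and their median was 110, beside 3547 of 19404 protein-coding genes and a median of 61; with genes that have a row in the table, a choice made after seeing the data, the median was 40, beside 26. Without the 3 genes of highest count, ZBTB45 had 1542 CPM. Per kb, the order reversed for ZBTB46-AS2 (91.4% of the pair) and ZBTB20-AS2 (98.4%), and the ratio was 0.389 for ZBTB44 to DDX18P5, 0.0940 for ZBTB46 to ZBTB46-AS2 and 1.14 for ZBTB12 to C2. The exonic length is that of all annotated exons, so these depend on the annotation. No paired analysis was possible because both replicates stand in 1 column, and for the same reason no replicate could be left out. At this depth a count under 10 carries an interval wider than itself.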
